A study of Arabidopsis thaliana with 12 samples.

Results

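In leaves of *Arabidopsis thaliana* the sugar carrier pGlcT2 of the chloroplast envelope was either strongly increased or reduced, and both kinds of mutant were here set jointly against wild types grown in continuous light. The comparison took the average of the overexpressor plants and the *glct2* knock-out plants, each line with equal weight, minus the wild types. It thus used all 12 libraries of the series, 4 for each genotype, and asked which transcripts moved the same way when the transcript of the carrier was raised and when it was lowered. All plants were of the Col-0 ecotype. They grew for 24 days in short days and then for 10 to 12 days in uninterrupted light of 100 to 120 µmol quanta m-2 s-1, and leaf RNA was sequenced. In the knock-out a T-DNA disrupts *pGlcT2* within its first intron. The overexpressor is a single transgenic line with the *pGlcT2* cDNA behind the viral 35S promoter, which is active in most cell types, and the study describes it as made on the basis of the *glct2* line, although its methods do not name the background that was transformed. If both lines carry the T-DNA insertion, the changes they share cannot be told apart from effects of that insertion and its background.

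Leaves need much iron, and most of it is held in chloroplasts, in photosystems, iron-sulfur proteins and haem, with ferritin as the store and iron superoxide dismutase as a further user. Plants short of iron switch on a small group of basic helix-loop-helix (bHLH) transcription factors, and with them genes for iron chelation, transport and reduction, while genes of iron storage are turned down. The E3 ligase BTS marks the upstream bHLH factors for degradation and so restrains this programme. Sulfur-deficiency genes and the anthocyanin pathway, which also appear below, respond to sulfur supply and to sugar and light respectively.

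Transcript levels are given in FPKM, fragments mapped to a gene relative to its length and to the depth of the library. A gene was tested when at least 4 of the 12 libraries reached an FPKM of 1, which left 18354 of the 32954 genes in the table. Differences are log2 fold changes on the scale log2(FPKM + 1), which understates the change of weakly expressed genes, and a gene is called where limma gave it an adjusted p (Benjamini-Hochberg, over all tested genes) below 0.05. A shared gene is one that is called in the mean of both mutants and in which all 8 mutant libraries lie on one side of all 4 wild-type libraries. It need not be called in each line alone. *LHCB2.3*, for example, is shared but was not called in *glct2* against wild types (adjusted p = 0.054 in limma). The libraries held 17448191 to 24276381 reads counted to genes, as recovered from the steps of the FPKM values. Wild type replicate 2 stood apart from the other wild types, at -15.2 on the first principal component against -34.8 to -31.2 in the other 3 and -17.5 to -12.0 in *glct2*. Because a count of shared genes leans on the most extreme wild-type library, the counts for all genes and for lists are also given without that replicate where they changed. Leaving out a wild type can only loosen the condition on the ranges, so a higher count without it is no separate support. List counts were not made without the other wild types. Of 7 root markers 2 passed the filter, with *IRT1* at no more than 1.18 FPKM, and none of the 6 flower-organ markers passed the filter. In leaf tissue a lower level cannot be told apart from fewer cells of the type that makes the transcript.

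*pGlcT2* itself (AT1G05030, chromosome 1) showed that the mean of both mutants alone does not describe a common response. Its level was 9.39, 10.1, 8.26 and 9.48 FPKM in wild types, 193, 180.3, 215 and 237 in the overexpressor and 2.65, 3, 3.89 and 2.83 in *glct2*. The overexpressor lay above and the knock-out below all wild types, with a mean in *glct2* of 0.332 times that of the wild types, and yet the mean was called at a log2-fold change of 1.49. For that reason the values of both lines are given side by side for most genes. A log2-fold change given alone is that of the mean of both mutants. The direct comparison of the overexpressor with *glct2*, which contains no wild-type library, shows where the lines differ from each other.

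In the mean of both mutants 2137 genes were higher than in wild types (11.6% of those tested) and 2437 were lower (13.3%). When all libraries were rescaled without the 50 most abundant genes, whose joint share of reads was 15.4 to 18.1% for wild types, 10.3 to 11.8% for overexpressor leaves and 12.2 to 14.8% for *glct2*, the split turned to 2639 higher and 1893 lower, and the median of all tested genes moved from -0.0004 to 0.035 on the log2 scale. Shared genes were fewer, with 587 higher (3.2%) and 716 lower (3.9%). Without wild type replicate 2 there were 998 and 1159 shared genes, among them 1211 of the 1303 found with it. Most shared changes were small, with a median of 0.43 among the higher and -0.42 among the lower genes. A change of at least 1 on the log2 scale in each line separately was seen in 59 shared rises and 32 shared falls, and of at least 2 in 24 rises and 4 falls. The largest shared changes were therefore mostly rises.

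**Figure D1:**
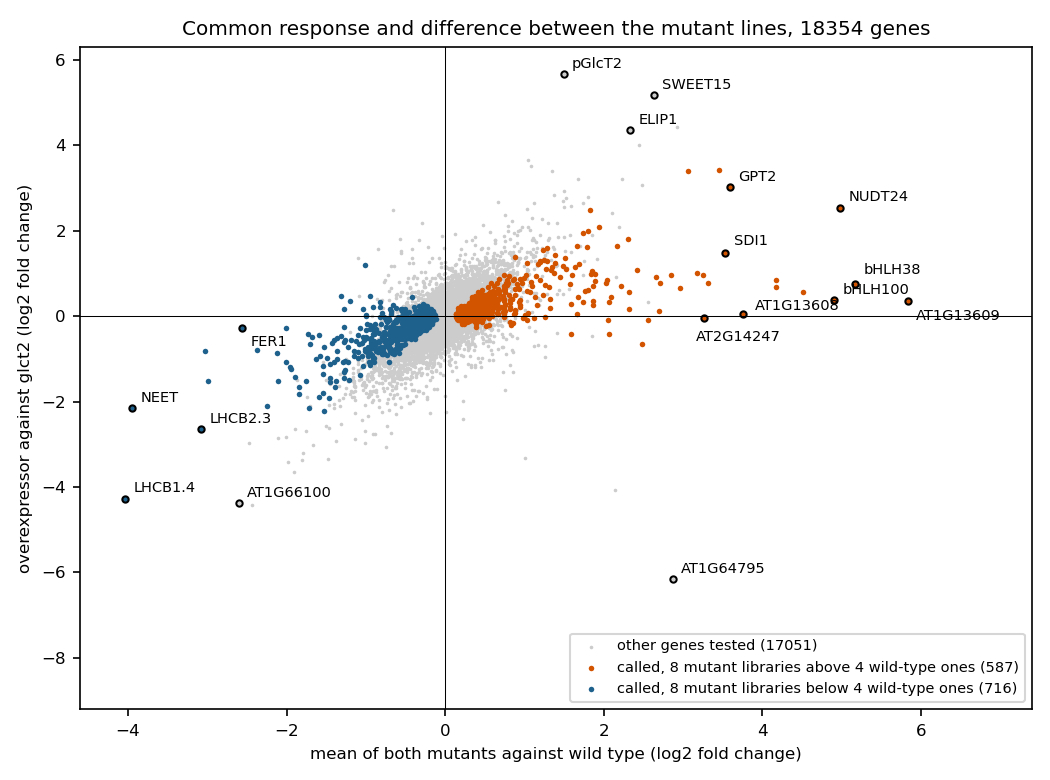
Each point is a gene, with the mean of both mutants against wild type on the horizontal axis and the overexpressor against *glct2* on the vertical axis, both as log2 fold changes. *bHLH38* and *bHLH100* of the iron-deficiency list lie far to the right and close to the zero line of the vertical axis, whereas *LHCB1.4* and *NUDT24* lie far from it.

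Among the 59 large shared rises 14 were members of the iron-deficiency list, 8 of the anthocyanin list and 6 of the sulfur-deficiency list. The iron-deficiency list held 27 tested genes, of which 16 were called higher and 4 lower, with 15 shared rises and 1 shared fall (3 falls without wild type replicate 2). Its median log2-fold change was 1.12 in the mean of both mutants, 1.099 in the overexpressor and 1.15 in *glct2*, where the median of all tested genes was -0.0004 in the mean. The summed level of the list rose from 678.5 to 735.6 FPKM in wild types to 1195 to 1955 in overexpressor leaves and 1388 to 1517 in *glct2*.

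*bHLH38* (AT3G56970, chromosome 3), which acts with the factor FIT in the induction of iron uptake, was read at 0.562, 1.01, 0.65 and 0.873 FPKM in wild types, at 93, 100.2, 95.6 and 49.2 in the overexpressor and at 39.5, 45, 62.3 and 48.4 in *glct2*. It was close to absent in every wild type and high in every mutant library, and its log2-fold change was 5.17 (SE 0.18, adjusted p = 2.6e-08). The neighbouring and closely related *bHLH39* (AT3G56980) went from 0.182, 0.397, 0.796 and 0.245 FPKM in wild types to 49.4, 58.8, 40.1 and 16.7 in the overexpressor and 19.6, 22.9, 32.7 and 26.5 in *glct2*, a log2-fold change of 4.51 (adjusted p = 1.4e-06). *bHLH100* (AT2G41240, chromosome 2), of the same subgroup, stood at 0.43, 2.09, 1.6 and 0.644 FPKM in wild types, at 83, 110, 69.3 and 37.6 in the overexpressor and at 48.8, 47.1, 76.7 and 47.5 in *glct2*. Its lowest mutant library was far above its highest wild type, with a log2-fold change of 4.90 (adjusted p = 1.2e-06). The remaining member *bHLH101*, at 0.636 FPKM in wild types, 7.66 in the overexpressor and 6.73 in *glct2*, rose by 2.32. *bHLH38* and *bHLH101* overlap other genes (AT3G56960 and AT5G04140), and since the strand setting of the counting is not given in the sources used here, some of their reads may belong to these. The same limit holds for other overlapping genes given below, among them *FER1*, *FER4*, *LHCB2.3*, *PSAN*, *ABCI8*, *PHS2* and *AT1G64795*.

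All the genes of this subgroup that were tested rose, and the DNA upstream of 3 of them, with that of a pair of co-rising small genes, is shown because bHLH proteins bind the E-box CANNTG, of which the G-box CACGTG is the best known form. The windows are the 250 bases before the gene start in TAIR10.1 (RefSeq), written 5′ to 3′ in the direction of the gene, with every E-box in capitals.
bHLH38, chr3:21085246-21085495, minus strand: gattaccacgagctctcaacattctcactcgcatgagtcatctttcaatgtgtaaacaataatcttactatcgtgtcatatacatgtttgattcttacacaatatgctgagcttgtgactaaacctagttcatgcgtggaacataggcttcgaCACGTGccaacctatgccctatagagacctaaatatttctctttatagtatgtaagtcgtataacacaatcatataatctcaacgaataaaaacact
bHLH39, chr3:21087711-21087960, minus strand: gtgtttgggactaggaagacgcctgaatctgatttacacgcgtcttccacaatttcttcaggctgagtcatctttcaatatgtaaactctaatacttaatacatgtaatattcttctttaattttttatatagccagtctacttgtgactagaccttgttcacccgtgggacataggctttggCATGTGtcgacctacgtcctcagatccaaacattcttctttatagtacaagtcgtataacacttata
bHLH100, chr2:17199455-17199704, minus strand: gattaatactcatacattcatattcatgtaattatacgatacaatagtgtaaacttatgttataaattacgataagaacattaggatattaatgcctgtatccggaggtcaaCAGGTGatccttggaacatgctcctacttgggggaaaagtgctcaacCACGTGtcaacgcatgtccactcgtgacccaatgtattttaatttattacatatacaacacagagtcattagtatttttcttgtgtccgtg
AT1G47395, chr1:17382748-17382997, plus strand: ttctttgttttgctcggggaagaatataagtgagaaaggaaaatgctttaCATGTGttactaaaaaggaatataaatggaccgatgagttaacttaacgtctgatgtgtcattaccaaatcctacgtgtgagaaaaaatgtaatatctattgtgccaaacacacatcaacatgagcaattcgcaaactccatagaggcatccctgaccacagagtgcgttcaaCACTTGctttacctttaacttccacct
AT1G47400, chr1:17385457-17385706, plus strand: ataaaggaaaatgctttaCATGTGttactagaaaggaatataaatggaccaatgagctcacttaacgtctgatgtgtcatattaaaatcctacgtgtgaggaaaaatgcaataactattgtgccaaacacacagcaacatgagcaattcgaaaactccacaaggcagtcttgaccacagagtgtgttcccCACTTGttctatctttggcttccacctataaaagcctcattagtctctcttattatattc

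*bHLH38* holds a G-box whose first base lies 97 bases before the gene start. At the matching place *bHLH39* reads CATGTG, which is an E-box but no G-box, and over the match with 20 bases on each side 31 of 46 bases were identical (67.4%). In *bHLH100* a CAGGTG stands 138 bases and a G-box 91 bases before the start. *AT1G47395* and *AT1G47400* share a CATGTG and a CACTTG at matching places, with 160 of 218 bases identical in the best ungapped placement (73.4%). The windows of *bHLH101*, *AT1G13609*, *NEET* and *FER1* held no E-box. Since both motifs read the same on both strands, one search covers both, and every G-box is also counted as an E-box. A G-box was found in 7.38% of the 18146 windows of tested genes, in 10.3% of those of shared rises and in 8.56% of those of shared falls. Among the large changes it was in 11 of 59 rises (18.6%) and 5 of 32 falls (15.6%), and the E-box was in 67.8% and 59.4% of them against 56.1% of all windows. These are counts of letters, and binding was not measured.

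Another group of strongly responding genes encodes small proteins and lies partly in clusters. It overlaps the iron-deficiency list, of which *AT1G47400* and *AT2G30766*, for example, are members. The largest log2-fold change among the genes ranked by their smaller change in the lines was that of *AT1G13609*, annotated as a defensin-like protein. It rose from 4.19, 19.1, 21.2 and 10.9 FPKM in wild types to 1042, 1076, 939 and 446 in the overexpressor and 546, 639, 805 and 637 in *glct2*, a log2-fold change of 5.83 (adjusted p = 1.4e-06). Every mutant library exceeded the highest wild type by a wide margin. Its neighbours *AT1G13608* and *AT1G13607*, also annotated as defensin-like, rose with it, and *AT1G13608* went from 0.069 to 0.313 FPKM in wild types to 9.03 to 20.5 in overexpressor leaves and 12.6 to 16.6 in *glct2*. The 3 genes occupy chr1:4660778-4663253, and the tested genes on either side (*AT1G13600* and *AT1G13630*) were not called.

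A similar run of 4 genes lies at chr1:17382998-17393026. *AT1G47395*, which the annotation leaves without a function, held 2.12, 3.84, 3.7 and 1.43 FPKM in wild types, 90.6, 111, 97.8 and 45.7 in the overexpressor and 40.7, 44.5, 74 and 49.4 in *glct2*. *AT1G47400* held 1.56, 4.79, 3.39 and 1.72 FPKM, 99.8, 117, 95.7 and 51.4 and 39.8, 45.8, 60.6 and 47.6 in the same order of genotypes. Their log2-fold changes were 4.17 and 4.17, but these genes are close copies of each other, so reads may have been shared between them. The non-coding gene *AT1G07367* next to them rose from a mean of 0.158 FPKM in wild types to means of 14.2 in the overexpressor and 8.22 in *glct2*, and *AT1G07373* completed the run, while the tested genes beyond its ends were not called. *AT2G14247* (3.55 FPKM in wild types, 42.1 in the overexpressor and 39.7 in *glct2*) and *AT2G30766* (8.25, 51.6 and 54.1) also belong to this group of short, poorly annotated genes, and both overlap other genes. Further neighbours among the large rises were *LSU3* with *LSU1*, *MSRB4* with *MSRB5* and *AT5G05250* with *CHIL*.

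**Figure D2:**
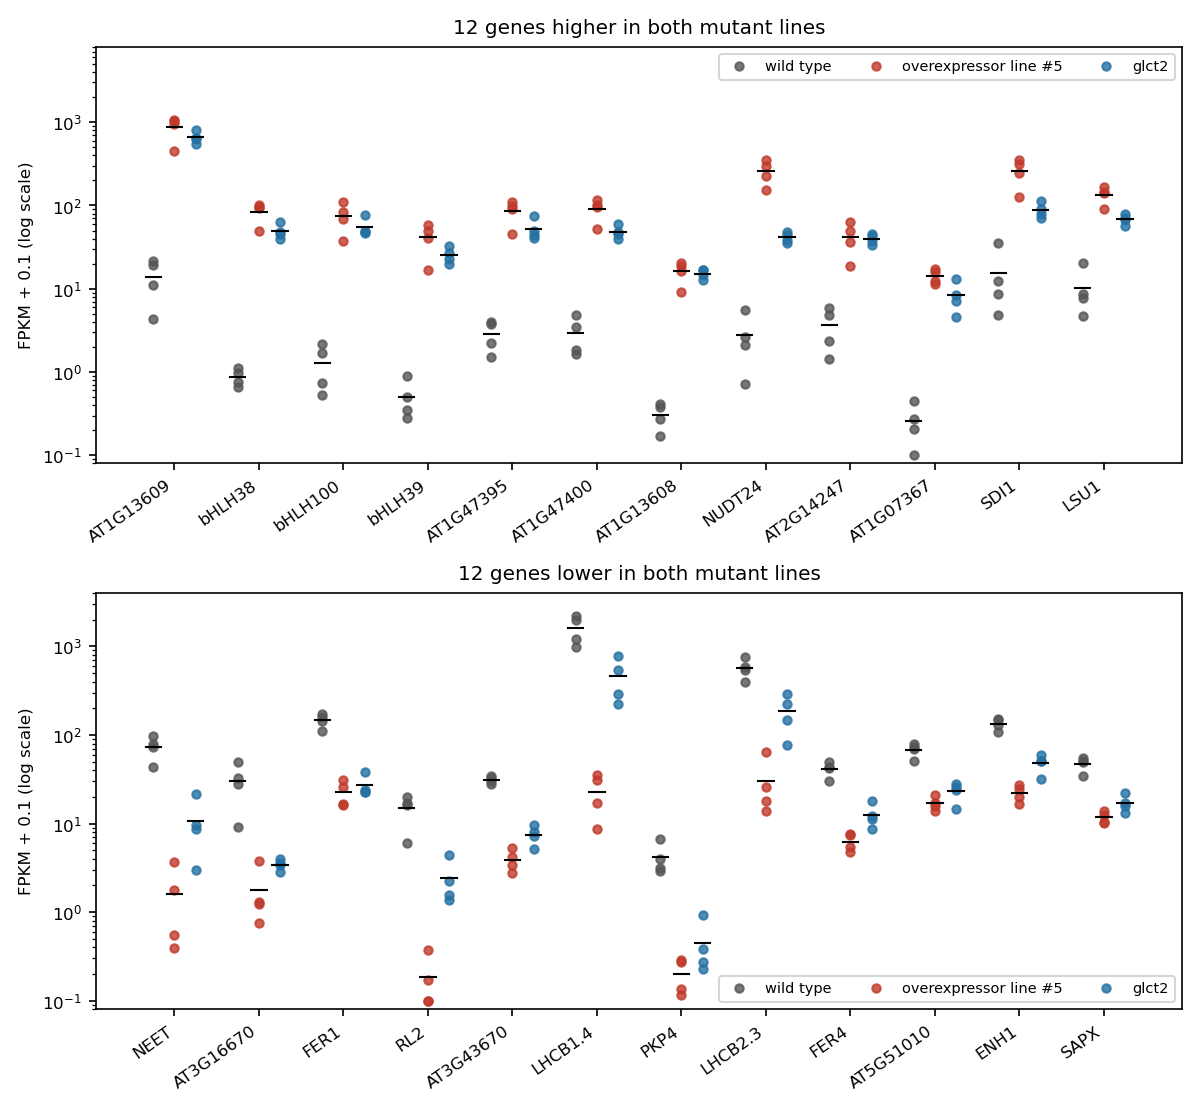
FPKM on a log axis in each of the 12 libraries for the 12 largest shared rises and the 12 largest shared falls, coloured by genotype, with libraries at 0 drawn at the lower edge. For *bHLH38* and *AT1G13609* the overexpressor and *glct2* points lie together far above the wild types, whereas for *LHCB1.4* the *glct2* points lie between the other groups.

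Further regulators of the response and genes of iron handling rose less. *PYE* (AT3G47640), a bHLH factor that dampens the iron-deficiency response, was read at 9.1, 12.9, 9.78 and 7.71 FPKM in wild types, 25.7, 27.7, 23.2 and 21.6 in the overexpressor and 26.3, 26.3, 25.4 and 22.1 in *glct2*. The mutant lines overlapped each other fully and the wild types not at all, with a log2-fold change of 1.26 (adjusted p = 1.8e-05). *ZIF1* (AT5G13740), a vacuolar carrier that alters the partitioning of zinc and iron, went from 14.7 to 22.1 FPKM in wild types to 37.4 to 82.8 in overexpressor leaves and 52.3 to 57.8 in *glct2*, a log2-fold change of 1.66 (adjusted p = 5e-05). *BTS*, the E3 ligase that restrains the programme, was at 40.3 FPKM in wild types, 164 in the overexpressor and 135 in *glct2*. *NAS4*, for the metal chelator nicotianamine, was at 10.3, 46.4 and 46.6 FPKM, and *FRO3*, a mitochondrial ferric reductase, at 19, 74.6 and 58.3. *OPT3*, which loads iron into the phloem, rose from 111 FPKM to 188 and 205, and *CGLD27*, a conserved chloroplast protein, from 59 to 129 and 133. All of these were shared rises. *bHLH101*, *BTS*, *NAS4*, *FRO3*, *OPT3*, *CGLD27* and *AT2G30766* were picked from the list after their values had been seen.

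The upstream factors of the same pathway behaved differently at the transcript level. *ILR3*, *bHLH104* and *bHLH115*, bHLH factors of the group that activates the *bHLH38* genes, were not called in the mean of both mutants, and neither were *NAS1*, *IRT3*, *FRO7* and *AT3G19860*. *bHLH34*, of the same upstream group, was called higher but not shared. Lower were *YSL1*, a carrier of metal-nicotianamine complexes (13.3 FPKM in wild types, 6.24 in the overexpressor and 6.18 in *glct2*, a shared fall picked after its values had been seen), *FRO6*, *NAS3* and *AT1G18910*, which is annotated as BRUTUS-like. The list thus did not move in a single direction.

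The lines were then compared directly with each other for these genes. *PYE* and *ZIF1* were named for having among the most equal changes in the lines, so their small differences follow from that choice. For *PYE* the overexpressor differed from *glct2* by -0.03 on the log2 scale (95% interval -0.30 to 0.25), for *ZIF1* by 0.05 (-0.37 to 0.46), for *bHLH100* by 0.37 (-0.32 to 1.06) and for *AT1G13609* by 0.35 (-0.54 to 1.24). For *bHLH38* the difference of 0.75 (SE 0.21) was called, with the higher level in the overexpressor (adjusted p = 0.015). Over the 15 shared rises of the iron-deficiency list the line difference ranged from -0.14 to 0.85. In 10 of the 15 the 95% interval lay within 1 of 0, and over all 15 the bounds ran from -0.66 to 1.47. The knock-out was the farther of the lines from wild type in 5 of them. Among shared genes with a mean log2-fold change of at least 1 in either direction, the line difference was called in 3 of 14 iron-deficiency genes (*bHLH38*, *AT1G47400* and *ORG1*), in 6 of 9 sulfur-deficiency genes, in 7 of 10 anthocyanin genes and in 13 of 13 photosystem and antenna genes, compared with 124 of 174 over all genes (71.3%). With the replicate number as a block the difference was also called for *AT1G47395* (adjusted p = 0.034 in limma, and 0.071 when only the mutant libraries were fitted). Over all tested genes the lines differed in 6151 (33.5%).

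**Figure D3:**
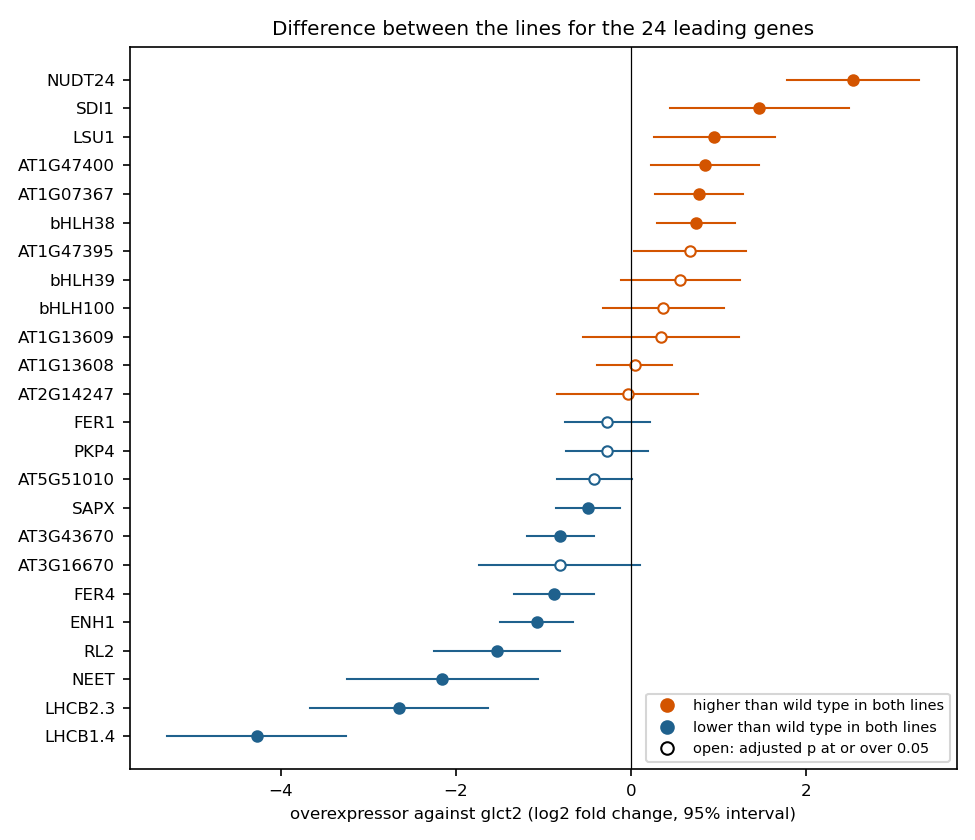
Overexpressor against *glct2* for the 24 genes with the largest shared changes, as log2 fold change with its 95% interval from limma (n = 4 libraries for each line). *AT1G13608* and *AT2G14247* lie at 0.05 and -0.04, and *NUDT24* (2.54) and *LHCB1.4* (-4.27) lie at the far ends. *AT2G14247* was also named for its small line difference.

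The genes of iron storage and of superoxide dismutases moved down. Of 14 tested members 10 were shared falls and 2 were shared rises, and the median log2-fold change was -0.99 in the mean, -0.89 in the overexpressor and -1.12 in *glct2*. *FER1* (AT5G01600), the main leaf ferritin, which stores iron in plastids, was at 159.6, 142, 112 and 173 FPKM in wild types, at 16.2, 16.6, 25.7 and 30.9 in the overexpressor and at 22.6, 24, 22.5 and 38.1 in *glct2*. Its highest mutant library was at 38.1 FPKM against 112 in the lowest wild type, with a log2-fold change of -2.56 (adjusted p = 8e-06) and a line difference of -0.27 (-0.76 to 0.22). *FER1* was also named for its small line difference, which is therefore no separate result. *FER4*, a further ferritin, fell from 29.8 to 49.3 FPKM in wild types to 4.67 to 7.48 in overexpressor leaves and 8.5 to 17.8 in *glct2*. *VTL1* and *VTL2*, relatives of vacuolar iron transporters, fell by 1.404 and 1.04 on the log2 scale in the mean of both mutants. They stood at -1.68 and -0.96 in the overexpressor and at -1.13 and -1.12 in *glct2*.

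The dismutases, which remove superoxide, differed among themselves. *FSD1* (AT4G25100), the abundant iron superoxide dismutase, stood at 463, 254, 341 and 470.4 FPKM in wild types, 32.7, 45.9, 31.3 and 38.1 in the overexpressor and 148, 165, 131 and 214 in *glct2*. All mutant libraries were below the wild types, but those of *glct2* were some way above those of the overexpressor, and the line difference was -2.12 (adjusted p = 4.1e-05). The copper/zinc enzymes *CSD1* and *CSD2* and their copper chaperone *CCS* were lower as well, at 309.9, 195 and 136 FPKM for *CSD1* and 218, 101 and 72.9 for *CSD2* in wild types, the overexpressor and *glct2*. Their means were lower in *glct2* than in the overexpressor, with line differences of 0.48 (0.09 to 0.86) and 0.47 (0.09 to 0.85) that were not called, whereas with the replicate number as a block both were (adjusted p = 0.029 and 0.020 in limma). The plastid iron enzymes *FSD2* and *FSD3* rose slightly, by 0.57 and 0.54 in the mean of both mutants. The overexpressor was called above *glct2* in both, by 0.53 and 0.51, and no gene of this list was called higher in *glct2* against wild types. The mitochondrial manganese enzyme *MSD1* was not called. *CSD1*, *CSD2*, *FSD2* and *FSD3* were chosen after their values had been seen.

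The largest fall in each line at once was that of *NEET* (AT5G51720, chr5:21009347-21010345, plus strand), an iron-sulfur protein of plastids and mitochondria. It was at 73.5, 43.5, 78.9 and 98 FPKM in wild types, at 0.458, 3.55, 0.297 and 1.69 in the overexpressor and at 9.56, 8.66, 2.92 and 21.6 in *glct2*. All mutant libraries were below the wild types, and 1 overexpressor library was above the lowest of *glct2*, with a log2-fold change of -3.95 in the mean (adjusted p = 0.00011) and a line difference of -2.15. Among 13 tested genes of plastid iron-sulfur assembly and ferredoxins, a list added after the data had been seen, 4 were called lower, with 3 shared (5 without wild type replicate 2), and none higher (none by limma-voom either, and none at an unadjusted p under 0.05). These were *ENH1*, a rubredoxin-type protein (133 FPKM in wild types, 22.1 in the overexpressor and 48 in *glct2*), *FD2*, the main leaf ferredoxin (1447, 323 and 661), *ABCI8*, a scaffold of iron-sulfur assembly (103, 38.8 and 46.5), and *NFS2*, the cysteine desulfurase, whose fall of -0.25 was small and not shared. The call of *NFS2* was lost without wild type replicate 1, 3 or 4 (adjusted p = 0.060, 0.054 and 0.084) and with the 8 mutant libraries as 1 group (0.099). The other assembly factors tested, among them *NFU2* and *HCF101*, were not called.

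In tetrapyrrole synthesis, also a list added after the data had been seen, 9 of 22 tested genes were lower and 3 of them shared (9 without wild type replicate 2). *HEMA1*, the first committed enzyme of the pathway, went from 100.1 to 182 FPKM in wild types to 15.7 to 21.1 in overexpressor leaves and 40.2 to 76.9 in *glct2*, a log2-fold change of -2.11 (adjusted p = 1.7e-05). *CHLH*, a subunit of magnesium chelatase, was at 421, 112 and 191 FPKM in wild types, the overexpressor and *glct2*. Of 17 tested excess light and reactive oxygen genes 1 was higher and 7 were lower, with 3 shared falls (5 without wild type replicate 2). *SAPX*, a stromal ascorbate peroxidase, was at 47.4 FPKM in wild types, 11.6 in the overexpressor and 16.9 in *glct2*, *CAT3* (AT1G20620), a catalase, at 2189.8, 728 and 1113, and the cytosolic peroxidase *APX1* at 348, 205 and 205. For *APX1* the line difference was -0.03 (-0.31 to 0.26).

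Photosystem and antenna genes, which build the light-harvesting machinery, had the highest share of members called lower of all lists. Of 38 tested members 37 were called lower, none was called higher (none by limma-voom either, and none at an unadjusted p under 0.05), and 23 were shared. Each line alone against wild types had 38 members called lower in the overexpressor and 10 in *glct2*. Without wild type replicate 2 all 38 mutant ranges lay below the wild types and were called. The median log2-fold change was -0.98 in the mean, -1.38 in the overexpressor and -0.65 in *glct2*. *LHCB1.4* (AT2G34430), a light-harvesting protein of photosystem II, was at 1221, 989, 2003 and 2222 FPKM in wild types, at 8.59, 30.6, 17 and 34.9 in the overexpressor and at 289.8, 546, 223 and 772 in *glct2*. The 3 genotypes formed separate steps, with *glct2* in between, and the line difference was -4.27 (-5.29 to -3.26, adjusted p = 8.1e-05). *LHCB2.3* showed the same steps, at 397 to 764, 13.7 to 64.3 and 76.4 to 293 FPKM. *PSAN* of photosystem I was at 1307 FPKM in wild types, 229 in the overexpressor and 662 in *glct2*, and *PSBQ2* of the oxygen-evolving complex at 1669.9, 485 and 1008. In 31 of the 38 the overexpressor was called below *glct2*, and in none above. The Calvin cycle moved less, with 5 of 19 tested genes lower, none higher (none by limma-voom or at an unadjusted p under 0.05) and 2 shared, *RPE* and *PRK* (5 without wild type replicate 2).

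Sulfur-deficiency genes rose in both mutants. Of 12 tested members 11 were called higher and 9 shared (11 without wild type replicate 2), with medians of 1.35 in the mean, 1.85 in the overexpressor and 1.04 in *glct2*. *SDI1* (AT5G48850), a repressor of glucosinolate synthesis that is induced by lack of sulfur, was at 12.2, 35.5, 8.48 and 4.75 FPKM in wild types, 316, 352, 247 and 128 in the overexpressor and 114, 79.5, 89.6 and 71.4 in *glct2*. No mutant library reached down to the wild types, although wild type replicate 2 was well above the other wild types, and the overexpressor exceeded *glct2* by 1.47 (0.44 to 2.49). *LSU1* (4.66 to 20.01, 89.5 to 168 and 56.6 to 77.8 FPKM in the same order) and *LSU3* (2.94 to 12.7, 40.8 to 91.4 and 29.8 to 36.8), small proteins named for their response to low sulfur, followed. The sulfate carriers *SULTR1;2* and *SULTR4;2* rose by 1.32 and 1.37 in the mean of both mutants, and *SULTR4;2* stood at 1.88 in the overexpressor and 0.86 in *glct2*. Of the sulfate-reducing enzymes *APR1* and *APR3* were called higher without being shared and *APR2* was not called. Genes of aliphatic glucosinolate synthesis, which draws on the same sulfur, were lower in 10 of 16, with 4 shared (6 without wild type replicate 2), and of the indole branch in 5 of 8, with 2 shared, none being higher in either (none by limma-voom or at an unadjusted p under 0.05). *SULTR1;2* was chosen after its values had been seen.

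Anthocyanin and flavonoid genes were higher in 22 of 29 tested members, lower in 1 (*TTG1*) and shared in 11. Without wild type replicate 2, 16 were shared. The medians of 1.097 in the mean, 1.56 in the overexpressor and 0.62 in *glct2* again put the overexpressor farther from wild type, and in 20 members it was called above *glct2*. *UGT79B1*, a glycosyltransferase that decorates anthocyanins, was at 22.8, 38.7, 13 and 9.42 FPKM in wild types, 160, 143, 129 and 163 in the overexpressor and 79.2, 54.4, 87.2 and 63.3 in *glct2*. Every wild type was below every mutant library. The regulator *TT8* rose from 2.48 to 7.51 FPKM to 18.6 to 26.9 and 9.84 to 15.4, and the acyltransferase *AT5MAT* from 7.34 to 21.3 to 60.8 to 74.7 and 29.1 to 44. The activators *MYB75* and *MYB90* were called higher but not shared.

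Some of the largest shared changes were far from equal in the lines. *NUDT24*, a nudix hydrolase, was at 2.51, 5.46, 2 and 0.622 FPKM in wild types, 299.9, 347, 225 and 154 in the overexpressor and 44.6, 38.6, 35.8 and 47.3 in *glct2*. The *glct2* libraries were close to each other and lay well between the other groups, with a line difference of 2.54 (1.78 to 3.30). *GPT2*, the glucose 6-phosphate carrier of the plastid envelope that is induced by glucose, was at 5.49, 9, 5.7 and 1.46, 205, 241, 208 and 139.8 and 27.9, 20.6, 22.8 and 21.6 FPKM in the same order. It rose in both lines, by 5.10 in the overexpressor and 2.08 in *glct2*, against the same wild types. Of the 1303 shared genes 553 had a called line difference (42.4%), 219 of the 587 rises (37.3%) and 334 of the 716 falls (46.6%). In all 219 such rises and in 326 of the falls the overexpressor was farther from wild type. The 8 exceptions, in which *glct2* was farther, were *AGO7*, *SMC3*, *NAP1*, *BCHC2*, *AT3G05945*, *AT3G28050*, *PRT6* and *AT5G13720*, chosen after their values had been seen. With the replicate number as a block *BCHC2* and *AT3G28050* were no longer called (adjusted p = 0.053 and 0.051 in limma), and when only the mutant libraries were fitted with that block, 3 of the 8 were (*AGO7*, *AT3G05945* and *PRT6*). *AT3G05945* was at 45.4 to 56.9 FPKM in wild types, 31 to 44.7 in overexpressor leaves and 13 to 18.1 in *glct2*. Each line has its own count against the same wild types, 3441 higher (18.7%) and 3646 lower (19.9%) in the overexpressor and 357 higher (1.95%) and 481 lower (2.62%) in *glct2*.

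Shared changes outside these lists were found too. *RL2*, a small MYB-related factor, fell from 19.7, 5.91, 16.3 and 17.2 FPKM in wild types to 0, 0.274, 0 and 0.0693 in the overexpressor and 2.14, 4.35, 1.26 and 1.46 in *glct2*. It was near or at 0 in the overexpressor and low in every *glct2* library. *AT3G16670*, of no annotated function, fell from 29.8 FPKM to 1.66 and 3.33, the amine oxidase *AT3G43670* from 31.2 to 3.8 and 7.37, and *PKP4*, annotated as a plastid pyruvate kinase, from 4.07 to 0.102 and 0.354. The rubredoxin-like *AT5G51010* fell from 67.5 FPKM to 16.8 and 23.1. *NYC1*, the chlorophyll b reductase, was at 81.5 to 87.8, 28.4 to 47.8 and 26.1 to 37.1 FPKM, with a line difference of 0.17 (-0.16 to 0.50). *NYC1* was also named for that small line difference. The other plastid glucose carrier, *pGlcT*, was at 91.3, 91.5, 98.2 and 111 FPKM in wild types, 67.4, 70.5, 72.7 and 71.9 in the overexpressor and 65.4, 74.3, 57.2 and 76.4 in *glct2*. Its shared fall of -0.49 (adjusted p = 0.0012) came with a line difference of 0.06 (-0.15 to 0.26).

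Starch synthesis had 6 members of 16 higher and 1 lower, and starch degradation likewise 6 of 16 higher and 1 lower, and 1 of these 32 genes, *APL4* of ADP-glucose pyrophosphorylase, was a shared rise, against 3.2% of all tested genes. Without wild type replicate 2 there were 3 shared rises and 1 shared fall in synthesis and 2 and 1 in degradation. The cytosolic phosphorylase *PHS2* was at 121 to 170.2 FPKM in wild types, 293 to 356 in overexpressor leaves and 112 to 139.8 in *glct2*, and the lines stood at 1.31 and -0.09 against the same wild types. The 13 members of 27 in the salicylic acid and defence list that were called lower, with none higher (none by limma-voom or at an unadjusted p under 0.05), included no shared gene, and the medians were -0.93 in the overexpressor and 0.10 in *glct2*. *FT*, the mobile flowering signal, was at 1.44 to 2.32 FPKM in wild types, 13.7 to 25.4 in overexpressor leaves and 0.495 to 1.22 in *glct2*, so that its called mean of 1.08 averaged 2.83 and -0.68. *SWEET15*, a sucrose exporter of senescing tissue, held 48.9, 6.19, 144 and 282 FPKM in the overexpressor and 0.538 to 0.873 in *glct2*, against 0.164, 0.39, 3.39 and 0.0736 in wild types. Its call in the mean was lost by limma-voom (adjusted p = 0.395) and in limma with a pseudocount of 5 (0.058). Without wild type replicate 1, 2 or 4 the call was lost too (adjusted p = 0.074, 0.057 and 0.084 in limma). *AT1G66100*, annotated as a thionin, was at 64, 71.4, 84.1 and 55.8 FPKM in wild types, 0.858, 6.98, 0.723 and 0.508 in the overexpressor and 52.7, 44.7, 58.9 and 47.1 in *glct2*. *AT1G15125*, *AT5G44020* and *AT2G37870* likewise stood at -4.65, -3.74 and 5.14 on the log2 scale in the overexpressor and at -0.22, -0.09 and 0.72 in *glct2*. The call of *AT2G37870* in the mean was lost by limma-voom (adjusted p = 0.307). High in the knock-out alone was *AT1G64795*, unannotated, which was listed at 0 in all overexpressor libraries, at no more than 0.437 FPKM in wild types and at 63.5, 63.5, 91.1 and 65.1 in *glct2*. *ELIP1*, an early light-induced protein, was at 6.68 FPKM in wild types, 233 in the overexpressor and 7.58 in *glct2*.

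For the lists that follow, the shares over all tested genes were 11.6% higher and 13.3% lower, with 3.2% and 3.9% shared. Cold and abscisic acid genes and cell wall genes lay near those shares. Sugar-repressed, nitrate and ammonium assimilation and floral transition genes lay far from them. Jasmonate and defensin genes were higher in 6 of 28 with 1 shared (4 without wild type replicate 2), *VSP2*, a vegetative storage protein, at 155, 440.2, 56.6 and 20.5 FPKM in wild types, 673, 1448, 1647 and 1433 in the overexpressor and 891, 504, 519.9 and 604 in *glct2*. Its wild types spread over a wide range, and the highest came close to the lowest *glct2* library. Sugar-repressed genes were lower in 10 of 20 with 5 shared (7 without wild type replicate 2), among them *SEN1* (AT4G35770), a gene induced in the dark (8.94, 0.677 and 2.96 FPKM), none being higher (none by limma-voom and 1 at an unadjusted p under 0.05). Sugar carriers, invertases and hexokinases were higher in 3 of 24 and lower in 10, with 2 shared falls (3 falls and 1 rise without wild type replicate 2). Plastid envelope transporters were higher in 2 of 16 and lower in 5, with 1 shared rise and 2 shared falls (1 and 5 without wild type replicate 2), and nitrate and ammonium assimilation was higher in 1 of 16 and lower in 10, of which 2 were shared and 9 without wild type replicate 2. Senescence genes were higher in 1 of 14 and lower in 5, cold and abscisic acid genes in 2 of 24 and 4, clock genes in 3 of 23 and 5, floral transition genes in 6 of 11 and 1, and cell wall genes in 2 of 19 and 2. Without wild type replicate 2 shared rises went from 2 to 4 in floral transition and 0 to 2 in cold and abscisic acid genes. They went from 1 to 2 in cell wall genes, and shared falls from 0 to 2 in clock genes. Of 17 phosphate-starvation genes none was called (none by limma-voom or at an unadjusted p under 0.05), and of 8 type-A response regulators none was called (none by limma-voom, 1 lower at an unadjusted p under 0.05).

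**Figure D4:**
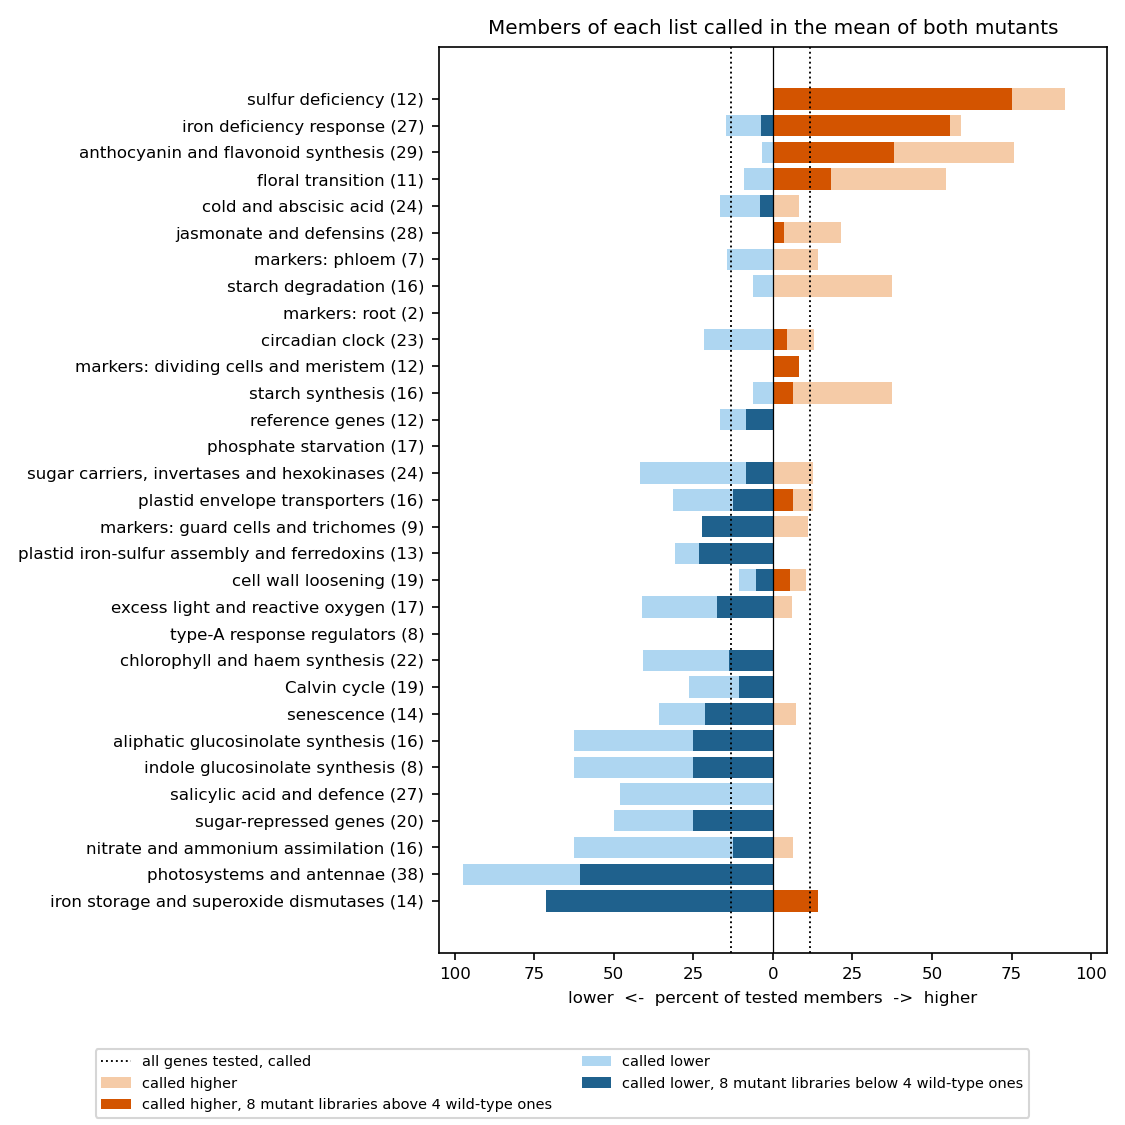
For each gene list the percentage of tested members that were called higher (to the right) or lower (to the left) in the mean of both mutants, with the shared genes in the darker part of each bar and dotted lines at the 11.6% and 13.3% of all tested genes. The photosystem list reaches farthest to the left, and the sulfur-deficiency list farthest to the right.

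Markers of other cell types were examined as well, against 11.6% higher and 13.3% lower over all tested genes. Of 12 dividing-cell markers 1 was higher (*TSO2*), and the summed level was 102.6 to 119.3 FPKM in wild types, 115.1 to 150.1 in overexpressor leaves and 118.5 to 133.8 in *glct2*. Of 9 guard-cell and trichome markers 1 was higher (*GORK*) and 2 were lower, the myrosinases *TGG1* and *TGG2*. *TGG1* was at 2067, 1837, 2154 and 2416 FPKM in wild types, 865, 947, 1195 and 1272 in the overexpressor and 857, 1291, 776 and 1454 in *glct2*, with a line difference of -0.00 (-0.47 to 0.46). The summed level of that list was 3445 to 4171 FPKM in wild types, 1721 to 2584 in overexpressor leaves and 1408 to 2598 in *glct2*. *TGG1* and *TGG2*, with means of 2118 and 1648 FPKM in wild types, made up most of that sum. The other 6 markers were not called, and the median log2-fold change of the list was -0.12. Both myrosinase calls were lost after quantile normalisation. The part of this list in the other results was not tested. Of 7 phloem markers 1 was higher (*APL*) and 1 lower (*SWEET11*, whose call was lost without any 1 wild type and under 8 more of the alternatives, at adjusted p of 0.050 to 0.088), with sums of 334.9 to 412.0, 381.3 to 568.7 and 325.2 to 417.2 FPKM. No phloem marker was shared, and 1 shared rise appeared without wild type replicate 2. Neither of the 2 root markers tested was called (none by limma-voom or at an unadjusted p under 0.05). Of 12 reference genes 2 were lower in the mean of both mutants, *ACT8* and *ACT2*. They stood at -1.02 and -0.77 on the log2 scale in the overexpressor, and at -0.14 and 0.04 in *glct2*, where neither was called.

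Shared genes were found on all chromosomes. They made up 6.81 to 7.51% of the tested genes on each of the 5 chromosomes. Within 1 Mb of *pGlcT2* 36 of 443 tested genes were shared (8.13%), and within 5 Mb 101 of 1385 (7.29%). The shared rises had a median of 9.49 FPKM in wild types and a median gene length of 1475 bases, the shared falls 23.7 FPKM and 2351.5 bases, and all tested genes 11.2 FPKM and 1762 bases. Of the rises 569 were protein coding and 8 were long non-coding RNAs, and of the falls 711 and 1.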

How the data were processed

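Leaf RNA of 12 samples, 4 biological replicates of each genotype, was sequenced from directional libraries. According to the submitters' processing notes the authors used fastp, HISAT2 2.0.5 and StringTie 1.3.3 with the TAIR10 genome, and deposited 1 table of FPKM values per gene and library. The program that counted the reads and its strand setting are not given in the sources used here. All 12 FPKM columns matched the labels of 1 library each, and of the other columns the gene length was used, for the recovery of reads and for median lengths. Whole reads were recovered from the steps of the FPKM values (100% whole within 0.01), and they served only the depth and the limma-voom alternative.

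Groups were taken from the sample titles. The filter on low values asked for an FPKM of 1 or more in 4 or more libraries, which 225 genes met in exactly 4, while 218 genes reached it in exactly 3. A linear model with 1 mean per genotype was fitted to log2(FPKM + 1) in limma 3.58.1 (R 4.3.3) with a trended variance prior and 9 residual degrees of freedom, and the contrasts were the mean of both mutants minus wild type, each line minus wild type, and the overexpressor minus *glct2*. The first and the last of these are independent in design. p-values were adjusted by Benjamini-Hochberg over all tested genes, with a threshold of 0.05, and intervals are at 95%. The code was tested on simulated data. Upstream windows and gene names were read from TAIR10.1, in which 32548 of the table's genes were found, 99.951% of them with the same start and end. Protein sequences were not used here.

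Genes were named by a rule: *pGlcT2*, the 12 largest shared rises and falls by the smaller change of the lines, the 5 rises and falls with the most equal change, the 4 rises and falls with the most unequal change, and for each list up to 4 called members with the smallest p. Others are marked as chosen later. The comparison and the gene lists were chosen with earlier results of these data known, so that agreement with them is no independent evidence. Alternatives were other pseudocounts, filters, normalisations and weights, limma-voom, a replicate block, the 8 mutant libraries as 1 group, a minimum fold change and leaving out each library. The comparison between the lines was fitted without pairing, and replicate numbers entered only as a block in alternatives. Same-numbered libraries of the overexpressor and *glct2* deviated together (correlations of deviations from the group means 0.12 to 0.18, other numbers -0.18 to 0.08). This is a hint of pairing from the data and not from the labels. Pairs with a wild type did not (-0.33 to 0.33). Depth was similar in all libraries, and 1 read in a gene of 1 kb was worth 0.0425 to 0.0553 FPKM.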

Additional observations from a re-analysis of the deposited data

Results flagged for a closer look

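In 13 of 234 groups of 4 libraries, taken over 78 of the genes given with values, the highest or lowest library stood far from the other 3 (Dixon's test, 95% level). Chance alone flags about 1 in 20 such groups, which is close to this share. Among iron-deficiency genes, *bHLH38* in overexpressor replicate 4 was low at 49.2 FPKM against 93.0 to 100.2 in the other 3. *bHLH100* in *glct2* replicate 3 was high at 76.7 (47.1 to 48.8), *BTS* in *glct2* replicate 4 low at 124 (137 to 139), *NAS4* in wild type replicate 1 low at 6.89 (11.2 to 11.6) and *YSL1* in *glct2* replicate 3 low at 4.82 (6.56 to 6.74). All of these are shared genes, so that by definition their mutant and wild-type libraries did not overlap.

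Of the storage and dismutase genes, *FER1* in *glct2* replicate 4 was high at 38.1 FPKM (22.5 to 24.0) and *CSD2* in overexpressor replicate 4 high at 129.7 (88.8 to 94.0). The other cases were *CHLH* in overexpressor replicate 2 at 142 FPKM (99.6 to 107), *AT1G66100* in overexpressor replicate 2 at 6.98 (0.508 to 0.858), *SULTR1;2* in *glct2* replicate 1 at 10.4 (7.70 to 7.87), *PHS2* in wild type replicate 2 at 170.2 (121 to 126), *SWEET15* in wild type replicate 3 at 3.38 (0.0736 to 0.390) and *AT1G64795* in *glct2* replicate 3 at 91.1 (63.5 to 65.1), each the highest of its group. The 3 flags in *glct2* replicate 3 and 2 each in *glct2* replicate 4 and overexpressor replicates 2 and 4 were the most in any library.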

How the results depend on the processing

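Treating the 8 mutant libraries as 1 group, which puts the line difference into the spread, left 590 higher and 601 lower genes in the mean, with 474 shared falls, and every one of these 1191 genes was also called before. A minimum log2-fold change of 1 left 189 higher and 163 lower genes, 96 and 78 shared genes and 788 line differences. Leaving out each library in turn gave 1230 to 2336 higher and 1604 to 2619 lower genes, 556 to 998 shared rises, 649 to 1159 shared falls and 4947 to 6582 line differences. The lowest counts in the mean came without wild type replicate 4 (1230 and 1604) and the highest shared counts without wild type replicate 2 (998 and 1159). All other settings kept these counts within 1.5 times. Of the 151 called genes that are named, 138 kept their call under every alternative except the grouping of all 8 mutants, with which 58 lost it, *LHCB1.4* among them. *TGG1* and *TGG2* were not called after quantile normalisation, at -0.43 and -0.34. *PER64*, a root marker that was not called, changed sign without wild type replicate 3 (-0.091) or 4 (-0.036), in a range of -0.091 to 0.67 over the libraries left out. With a replicate block 1905 genes were higher, 2184 lower, 567 and 680 shared, and 5656 differed between lines. In a fit of the mutant libraries alone, added after the data had been seen, 5265 genes differed between lines with the block and 5478 without it, and 440 of the 553 line differences of shared genes were called with it. Apart from the line calls given in the report, those of *NFS2*, *TT8*, *MSRB5*, *THI2.1* and *AT5G51010* changed in either of these blocked fits. The planned count models of DESeq2 and edgeR were not run because the deposited values are FPKM. Depth limits genes near an FPKM of 1, where few reads stand behind a value.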

Other observations

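Genes outside the lists also stood among the large shared rises, and the following were chosen after their values had been seen. *MSRB4* and *MSRB5*, neighbouring methionine sulfoxide reductases that repair oxidised methionine, went from 1.16 to 2.13 and 25.3 to 45 FPKM in wild types to 11.4 to 16.3 and 93.2 to 195 in overexpressor leaves and 5.41 to 6.4 and 78.2 to 98.2 in *glct2*. *THI2.1*, an antimicrobial thionin, held 7.47, 7.34, 2.56 and 1.71 FPKM in wild types, 17.9, 10.3, 56.9 and 20.9 in the overexpressor and 41.4, 22.1, 57.2 and 28 in *glct2*, where the means of the mutants were 26.5 and 37.2. *AT3G28220*, of no annotated function, was at 27 to 199.7 FPKM in wild types, 287 to 354 in overexpressor leaves and 313 to 558 in *glct2*.

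Other rises were very unequal in the lines. *LTP4*, a lipid-transfer protein of the leaf surface, was at 28.5 FPKM in wild types, 1072 in the overexpressor and 81.8 in *glct2*. *HIPP24*, a heavy metal-associated isoprenylated protein, was at 1.27, 67.6 and 4.52 FPKM, and the aminotransferase *PYD4* at 16.6, 144 and 39.8. Their line differences were 3.42 (2.17 to 4.66), 3.41 (2.39 to 4.42) and 1.82 (1.13 to 2.51) on the log2 scale.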
